A study of Mus musculus with 6 samples.

Results

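Iron handling and heme synthesis are described here through 9 genes in mouse brown adipose tissue, the fat depot whose mitochondria make heat. The genes were taken by symbol: Tfrc, Fth1, Ftl1 and Slc40a1 for the uptake, storage and export of iron, and Alas1, Alas2, Urod, Cpox and Fech for enzymes of heme synthesis. The arrays held 23 probe sets that list one of them, out of 22690. Of the 9 genes, 8 had a probe set of their own and were tested among 12393 genes, and Ftl1 was read solely by probe sets that also list a pseudogene.

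Iron enters most cells bound to transferrin, is stored in ferritin, and leaves through a single known exporter, ferroportin. Inside mitochondria it is built into heme and iron-sulphur clusters, the cofactors of the respiratory chain on which brown fat depends. Heme is made by a chain of enzymes that begins with aminolevulinate synthase and ends with ferrochelatase, both in mitochondria, with steps in the cytosol between them. The transcripts of the transferrin receptor, the ferritins, ferroportin and Alas2 carry hairpins bound by iron regulatory proteins. Some of these hairpins, among them those of the ferritins and Alas2, act on translation rather than on transcript level.

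The tissue came from mice 3.5 months old, of mixed C57BL6 and 129 background, that had been given a high fat diet for 3 months. Control mice were YY1flox/flox, with both Yy1 alleles floxed, and gave 3 arrays, and YY1bKO mice were YY1flox/flox and also carried Ucp1Cre, and gave 3 arrays. Ucp1Cre is a Cre recombinase driven by regulatory sequence of Ucp1, which brown adipocytes express, so deletion is directed at brown adipocytes and not at the vessels, immune cells or nerves of the depot, and the control mice are not described as carrying Cre. The comparison asks how transcripts of the tissue differ when brown adipocytes lose Yin Yang 1, a zinc finger transcription factor.

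Yy1 itself was 2.69-fold lower in YY1bKO tissue, with a log2 intensity of 9.82 ± 0.18 (SD, n = 3) against 8.39 ± 0.02 (SD, n = 3), and a limma adjusted p of 0.000854. Brown adipocyte markers were bright in both groups, Ucp1 at 13.92 and 13.78, so the tissue label held. Of 11 such markers limma called 3 higher in YY1bKO and 0 lower. Those were Ppargc1a, Zic1 and Elovl3, with log2 fold changes of 1.09, 0.90 and 1.14. The median log2 fold change of the 11 was -0.12, so the list as a whole did not rise. Cox8b was lower, at -0.21 with groups that did not overlap, and was not called. All genes together gave 18.3% called at an adjusted p under 0.05, 10.2% higher and 8.09% lower in YY1bKO, and a median log2 fold change of 0.04. Control replicate 2 stood apart from the other 5 arrays along the second principal component, which held 36.0% of the variance. It also had the highest mean of 15 skeletal muscle markers, 13.63, against 10.90 and 11.17 in the other control arrays and 12.07 to 12.52 in the YY1bKO arrays. The number of arrays limits the precision of every value below. Values are log2 intensities of the brightest probe set of a gene unless another is named, and levels of different genes are not compared. A reading is called dim when its mean over the 6 arrays is at most 6.49, the midpoint of all probe sets.

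Promoter sequences were searched for the letters of known binding motifs, because a transcription factor was deleted. RefSeq windows on GRCm38.p6, from 250 bases before a start to 50 after it, were matched for 7 of the 9 genes. Slc40a1 and Fech had no window in the sequences used, so their promoters were not searched. The YY1 motif was searched on both strands as AANATGGCG and as its shorter core CCATNTT, the reverse complement of which overlaps the first letters of the long form. Urod, on chromosome 4, was the 1 gene of the 7 whose window held either, and the same letters met both forms, beginning 37 bases before the start. The long form occurs in 2.38% and the short form in 16.1% of the 32851 windows of all genes. The other stretches show 2 motifs known for the pair of aminolevulinate synthase genes. In Alas1, on chromosome 9, this is the palindromic motif of nuclear respiratory factor 1, searched by its letters GCGCATG on both strands and present in 3.91% of all windows, which begins at base 30 after the upstream RefSeq start and 195 bases before the downstream one. In Alas2, on the X chromosome, it is the erythroid GATA motif AGATAA, read on the opposite strand and beginning 86 bases before the start, with letters present in 11.2% of all windows and also in the window of Cpox. The hypoxia response letters TACGTG, searched likewise and present in 3.23% of all windows, were found in the windows of Tfrc and Cpox. Capitals mark the motif in each line, and each stretch is written 5′ to 3′ on the strand of its gene, Urod as chr4:116994414-116994513 on the minus strand, Alas1 as chr9:106247906-106247935 on the minus strand and Alas2 as chrX:150547319-150547348 on the plus strand.
Urod: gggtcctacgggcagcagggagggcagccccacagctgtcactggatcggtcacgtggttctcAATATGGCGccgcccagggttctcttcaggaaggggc
Alas1: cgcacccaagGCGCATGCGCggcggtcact
Alas2: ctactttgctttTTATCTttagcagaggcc
A match describes letters in a window and is not a shown binding site, and a window with no match says nothing of sites elsewhere.

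Of the 8 tested genes, Slc40a1, Fech and Alas1 were lower in YY1bKO tissue and Fth1 was higher, each with groups that did not overlap. That is 4 of 8 called, beside 18.3% of all genes, and 4 of 8 with groups that did not overlap, beside 38.5% of all genes. The median log2 fold change of the 8 was -0.21, beside 0.04 for all genes. Slc40a1 and Fech differed by 1.79-fold and 1.47-fold, and Alas1 and Fth1 by 1.26-fold and 1.22-fold. Tfrc, Alas2, Cpox and Urod were not called.

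**Figure D1:**
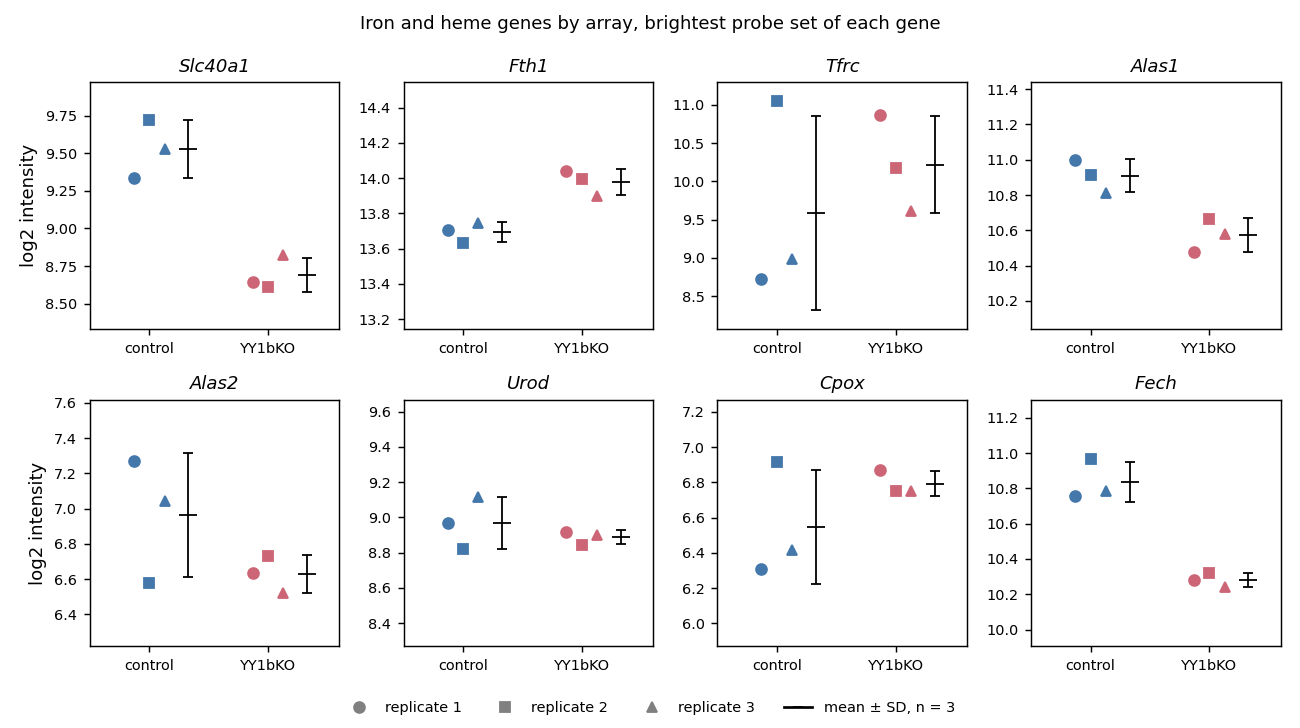
Log2 intensity (vertical axes, each with its own scale) of the brightest probe set of each of the 8 genes on the 3 control and 3 YY1bKO arrays. Point shapes are replicate numbers and bars are the mean ± SD (n = 3). Slc40a1, Alas1 and Fech are lower in all 3 YY1bKO arrays and Fth1 is higher, while control replicate 2 lies away from the other control arrays in Tfrc, Cpox and Alas2.

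Slc40a1 encodes ferroportin, the exporter that moves iron out of cells. It read 9.33, 9.72 and 9.53 on the control arrays and 8.64, 8.61 and 8.82 on the YY1bKO arrays. All YY1bKO values lay below all control values. This is a log2 fold change of -0.84 ± 0.12 (SE), with a 95% interval from -1.12 to -0.55 and a limma adjusted p of 0.00654. A second, dimmer probe set had means of 7.63 and 6.76 and gave -0.86 ± 0.17 (SE, limma adjusted p = 0.0176 over all probe sets). Both probe sets of the gene therefore fell by a similar amount. The call was kept under each of the 14 alternatives tried, between -0.93 and -0.74. In bulk tissue, fewer cells of a type and less RNA per cell cannot be told apart.

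Ferroportin is also made by macrophages, which return iron from red cells, and by other cells of the depot. Of 15 macrophage markers 0 were called by limma, and 1 had an unadjusted p under 0.05. The mean of the macrophage markers was 7.44 ± 0.30 over the control arrays and 7.49 ± 0.09 over the YY1bKO arrays (SD, n = 3), with a two-sided exact permutation p of 0.9. Endothelial markers were lower, with 4 of 8 called lower, beside 8.09% of all genes. All 8 had groups that did not overlap, beside 38.5% of all genes in either direction. Their mean was 8.24 ± 0.11 against 7.75 ± 0.11 (SD, n = 3) by the same permutation test. That p was 0.1, the smallest an exact permutation of 3 against 3 arrays allows. Cdh5, the cadherin of endothelial junctions, gave -0.53 and Tek, an angiopoietin receptor, -0.65. The part of endothelial cells or macrophages in the Slc40a1 difference was not tested. The genes most like Slc40a1 over the 6 arrays were Dab2ip, Hdgf, Zmiz2, Snx21 and Nomo1, with Pearson's r from 0.989 to 0.995, a description in which the difference between the groups is shared by all points.

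Fth1 encodes the ferritin heavy chain, which oxidises iron as it is stored. It read 13.70, 13.63 and 13.75 in control and 14.04, 14.00 and 13.90 in YY1bKO tissue. Every YY1bKO array was above every control array, near the top of the intensity range, where a difference may be compressed. In log2 fold change this was 0.28 ± 0.08 (SE, limma adjusted p = 0.0494). The second probe set had means of 13.55 and 13.86 and gave 0.31 ± 0.07 (SE), called over all probe sets at a limma adjusted p of 0.0284, whereas the first missed the threshold there at 0.0560. The gene call was lost when any single array was left out, with 0.25 to 0.32 and adjusted p from 0.0705 to 0.158. It was also lost under median centring (0.28, 0.0534) and with a block for the replicate number (0.28, 0.127). Fth1 has near-identical processed pseudogenes, so reads by its probe sets may not be of the gene alone.

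The light chain, which helps the iron core to form, was read by 3 probe sets that list Ftl1 together with the pseudogene Ftl1-ps2, 1 of them also with microRNA genes. No level can be given to Ftl1 alone. These probe sets gave log2 fold changes of 0.21, 0.18 and 0.11, and their groups overlapped. The limma adjusted p values were 0.353, 0.497 and 0.537 over all probe sets. On the brightest, control replicate 2 was the lowest of all arrays at 11.75.

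Tfrc encodes the receptor that brings transferrin-bound iron into cells. It read 8.72, 11.04 and 8.99 in control and 10.87, 10.17 and 9.61 in YY1bKO tissue. Control replicate 2 was the highest array and the other control arrays were the lowest, so the groups overlapped. The log2 fold change was 0.63 ± 0.64 (SE, limma adjusted p = 0.548), with a 95% interval from -0.88 to 2.15 that leaves the direction unsettled. Without control replicate 2 it was 1.36 ± 0.33 (SE), called at a limma adjusted p of 0.0274. With array weights it was 1.16 and in the mean over its probe sets 0.40, called in neither. The dim remaining probe sets of the tested table gave log2 fold changes of 0.56 and -0.002. The array design also holds 3 control probe sets for this receptor, at its 3′ end, middle and 5′ end, and these read between 3.18 and 4.74 on all arrays, in the dim range.

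The skeletal muscle markers, fixed as a list of 15 contractile and metabolic genes, followed a like order across the arrays. Control replicate 2 was highest in both Tfrc and the markers, the YY1bKO arrays lay between, and control replicates 1 and 3 were lowest in both. Of the 15 markers 0 were called by limma, and 0 had an unadjusted p under 0.05. The marker mean was 11.90 ± 1.50 over the control arrays and 12.31 ± 0.23 over the YY1bKO arrays (SD, n = 3), with a two-sided exact permutation p of 0.7. The part of muscle RNA in the Tfrc, Cpox and Alas2 values was not tested.

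**Figure D2:**
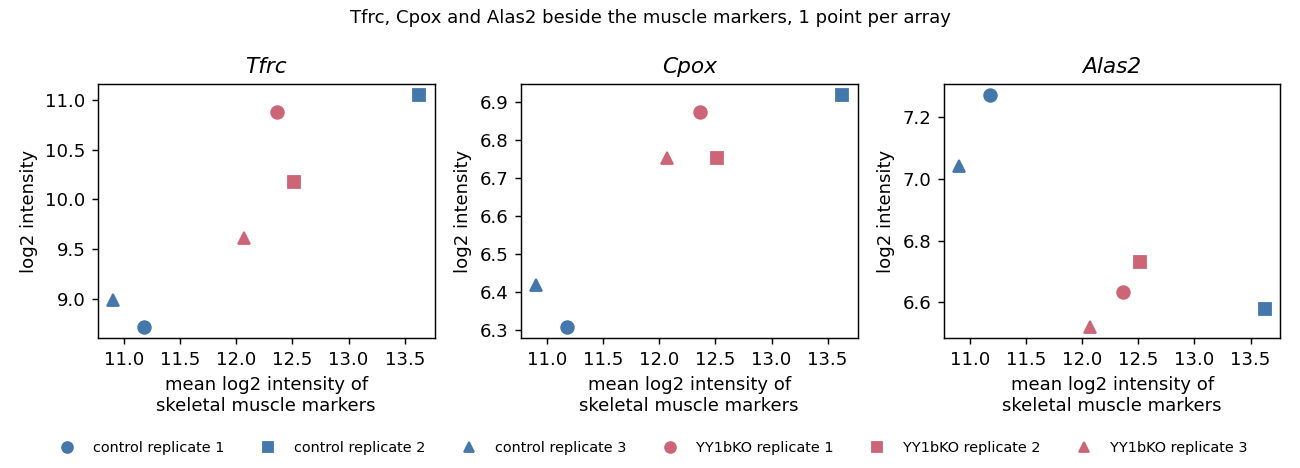
Log2 intensity of Tfrc, Cpox and Alas2 (vertical axes) against the mean log2 intensity of 15 skeletal muscle markers (horizontal axes), 1 point per array. Control replicate 2 lies at 13.63 on the muscle axis, the YY1bKO arrays between 12.07 and 12.52, and the other control arrays at 10.90 and 11.17. Tfrc and Cpox are lowest and Alas2 is highest in those last 2 arrays.

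Heme synthesis begins with aminolevulinate synthase, which joins glycine and succinyl-CoA. Alas1, the form made in most tissues, read 11.00, 10.91 and 10.81 in control and 10.48, 10.67 and 10.58 in YY1bKO tissue. The groups did not overlap, and the log2 fold change was -0.34 ± 0.09 (SE, limma adjusted p = 0.0447). Its second probe set gave -0.31 ± 0.11 (SE) with groups that did not overlap and was not called over all probe sets (limma adjusted p = 0.119). The gene call was lost when any single array was left out, with -0.38 to -0.29 and adjusted p from 0.0534 to 0.143. It was also lost under quantile normalization (-0.30, 0.0608), in the mean over the probe sets (-0.32, 0.0656) and with the replicate block (-0.34, 0.110).

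Alas2, the form of developing red cells, read 7.27, 6.58 and 7.04 in control and 6.63, 6.73 and 6.52 in YY1bKO tissue. Control replicates 1 and 3 were above all YY1bKO arrays and control replicate 2 was not. The log2 fold change was -0.33 ± 0.18 (SE, limma adjusted p = 0.249), and -0.53, called at a limma adjusted p of 0.0154, without control replicate 2. With array weights it was -0.50, called at 0.0320. Of 15 red cell markers, 0 were called by limma and 1 had an unadjusted p under 0.05, the globin gene Hbb-b2, with means of 6.99 and 6.09. Their mean was 4.95 ± 0.03 in control and 4.88 ± 0.03 in YY1bKO arrays (SD, n = 3), and the arrays of the groups did not overlap in it, which gives the smallest p an exact two-sided permutation allows, 0.1. That separation depends on Ank1, which read 9.22 on control replicate 2, 7.09 and 7.21 on the other control arrays, and 7.44 to 8.01 in YY1bKO. The median log2 fold change of the list was 0.03, so the mean does not show a decrease shared by the markers. Of the 15 genes, 12 were dim. Adult globins were bright on 4 probe sets shared between globin genes, with log2 fold changes from -0.26 to -0.01 and 0 called by limma, and 1 of these 4 had an unadjusted p of 0.048. The part of red cells in the Alas2 values was not tested.

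Neither gene of the middle steps was called. Urod, which trims uroporphyrinogen in the cytosol and whose window holds the YY1 letters printed above, read 8.97, 8.82 and 9.12 in control and 8.92, 8.84 and 8.90 in YY1bKO tissue. The groups overlapped, with a log2 fold change of -0.08 ± 0.10 (SE, limma adjusted p = 0.615), with a 95% interval from -0.31 to 0.15. Cpox, the mitochondrial enzyme of the following step, read 6.31, 6.92 and 6.42 in control and 6.87, 6.75 and 6.75 in YY1bKO tissue. Control replicate 2 was again away from the other control arrays. The log2 fold change was 0.24 ± 0.16 (SE, limma adjusted p = 0.354), and 0.43, called at a limma adjusted p of 0.0144, without control replicate 2. With array weights it was 0.39, called at 0.0462. Its other probe set was dim and gave 0.15.

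Fech encodes ferrochelatase, which places iron into protoporphyrin at the last step. It read 10.76, 10.96 and 10.78 in control and 10.28, 10.32 and 10.24 in YY1bKO tissue. The 3 YY1bKO arrays lay close together and below all control arrays. The log2 fold change was -0.55 ± 0.08 (SE), with a 95% interval from -0.76 to -0.35 and a limma adjusted p of 0.00794. Of the 3 other probe sets, 2 were also called lower over all probe sets, with -0.71 (limma adjusted p = 0.00264) and -0.42 (0.0497). The fourth was dim, at 4.56 and 4.70, and gave 0.14. The gene call was kept under each of the 14 alternatives, between -0.59 and -0.39.

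**Figure D3:**
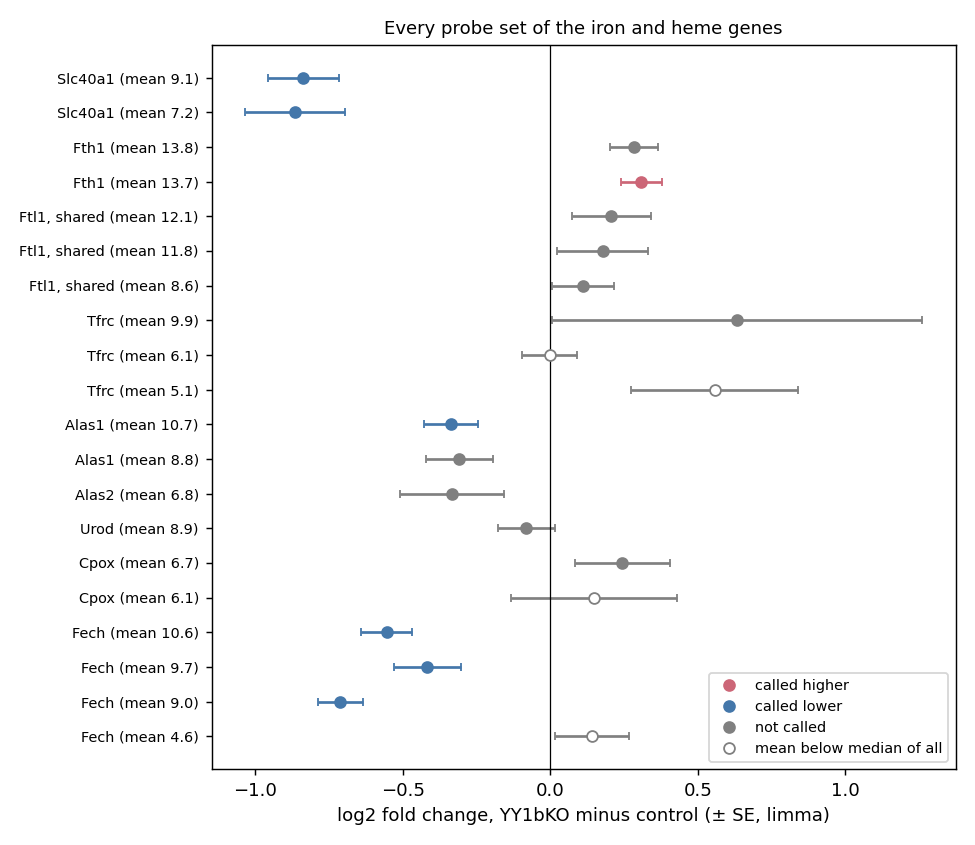
Log2 fold change of YY1bKO over control (horizontal axis, ± SE from limma over all probe sets) for every probe set of the 9 genes outside the array controls, labelled with its mean log2 intensity over the 6 arrays. Open points are dim, with a mean under 6.49. Of the 17 probe sets that list 1 gene, 6 were called lower, from Slc40a1, Alas1 and Fech, and 1 higher, from Fth1, and the shared probe sets of Ftl1 were not called.

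Over the 17 probe sets that list 1 of the genes and are not array controls, 7 were called, 1 higher and 6 lower, beside 16% of all 22626 probe sets tested, 8.83% higher and 7.16% lower. Leaving out control replicate 2 changed which of the 8 genes were called. Tfrc and Cpox were then called higher and Slc40a1, Fech and Alas2 lower, and Fth1 and Alas1 were no longer called.

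Beyond these genes, 63 others of iron and heme metabolism were measured in 7 lists, and 6 were called higher and 17 lower, which is 36.5%, beside 18.3% of all genes. Their median log2 fold change was -0.16. The counts ranged from 3 to 7 higher and from 4 to 20 lower when 1 array was left out, and the lowest count of lower genes, 4, came without YY1bKO replicate 2. The lower count was 8 without control replicate 1 and 6 in each of the fits that dropped YY1bKO replicate 1 or YY1bKO replicate 3. The higher count fell to 3 in the fits that dropped control replicate 1 and in those that dropped YY1bKO array 2 or 3.

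The other enzymes of heme synthesis moved in both directions. Alad, which joins a pair of aminolevulinate molecules, fell by 0.52 on the log2 scale (limma adjusted p = 0.0496), a call lost when any array other than YY1bKO replicate 3 was left out, with -0.58 to -0.41 and adjusted p from 0.0604 to 0.151. Quantile normalization, median centring, array weights, the replicate block and log2(intensity + 16) also ended it, with adjusted p from 0.0518 to 0.0630. Uros, which closes the ring before Urod acts, rose by 0.53 ± 0.09 (SE, limma adjusted p = 0.0104), and this call was kept under every alternative. Ppox, between Cpox and Fech, gave 0.23 and was not called. In the main fit Alas1, Alad and Fech were called lower and Uros higher, while Alas2, Urod, Cpox and Ppox were not called. Of these calls, those of Fech and Uros were kept under every alternative, and those of Alas1 and Alad were not.

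Heme transport and breakdown held 6 lower and 1 higher of 14 genes, 50% beside 18.3% of all genes, with a list median of -0.36. Slc48a1, which carries heme out of endosomes and lysosomes, fell by 0.78 ± 0.11 (SE, limma adjusted p = 0.00656). Slc46a1, a transporter of folate that also carries heme, fell by 0.56 on the log2 scale at a dim mean level of 6.17. Abcb10, a transporter of the inner mitochondrial membrane needed for heme synthesis in red cell precursors, fell by 0.44, and Abcg2, an exporter of porphyrins, by 0.46. The 2 other lower genes, named after their values were seen, were Blvra, which reduces biliverdin, at -0.45, and Hebp1, a heme-binding protein, at -0.87. Hpx, the plasma heme scavenger hemopexin, was the higher one, with 0.47 at a dim level of 4.86 in control tissue. Of these calls, that of Slc46a1 was lost without YY1bKO array 3 (limma adjusted p = 0.0534), that of Abcb10 without YY1bKO array 2 or 3 (up to 0.0548) and in the mean over its probe sets (-0.20, 0.189), and that of Abcg2 without control array 1 or YY1bKO array 1 or 2 (up to 0.0749). The Hpx call was lost without control array 1 or 3 or YY1bKO array 2 or 3 (up to 0.0753), and those of Blvra and Hebp1 without any array except control 2 (up to 0.125 and 0.131). The replicate block ended the calls of Slc46a1, Abcb10, Abcg2, Hpx and Blvra too (limma adjusted p up to 0.0643). Slc48a1 kept its call under every alternative. Hmox1, the inducible heme oxygenase, was dim and gave 0.34 ± 0.20 (SE, limma adjusted p = 0.292).

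Among 9 genes of iron uptake 1 was higher and 1 lower, which is 22.2%, near the 18.3% of all genes. Slc39a8, a carrier of zinc, iron and manganese, fell by 1.03 ± 0.14 (SE, limma adjusted p = 0.00500) at dim levels of 5.36 and 4.32. It was still called at smaller sizes of -0.55 in the mean over its probe sets and -0.66 on the scale of log2(intensity + 16). Slc11a2, the carrier that moves iron out of endosomes, rose by 0.63 in its brightest probe set (limma adjusted p = 0.00995), but gave -0.04 in the mean over its probe sets. Beside those 18.3%, mitochondrial iron import held 25%, 1 higher gene of 4. That gene was Slc25a28, mitoferrin 2, which rose by 0.58 ± 0.08 (SE, limma adjusted p = 0.00596), from 8.34 to 8.92. Slc25a37, mitoferrin 1, the form of red cell precursors, gave -0.45 ± 0.16 (SE, limma adjusted p = 0.102), and -0.63, called at 0.0230, without control array 3.

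**Figure D4:**
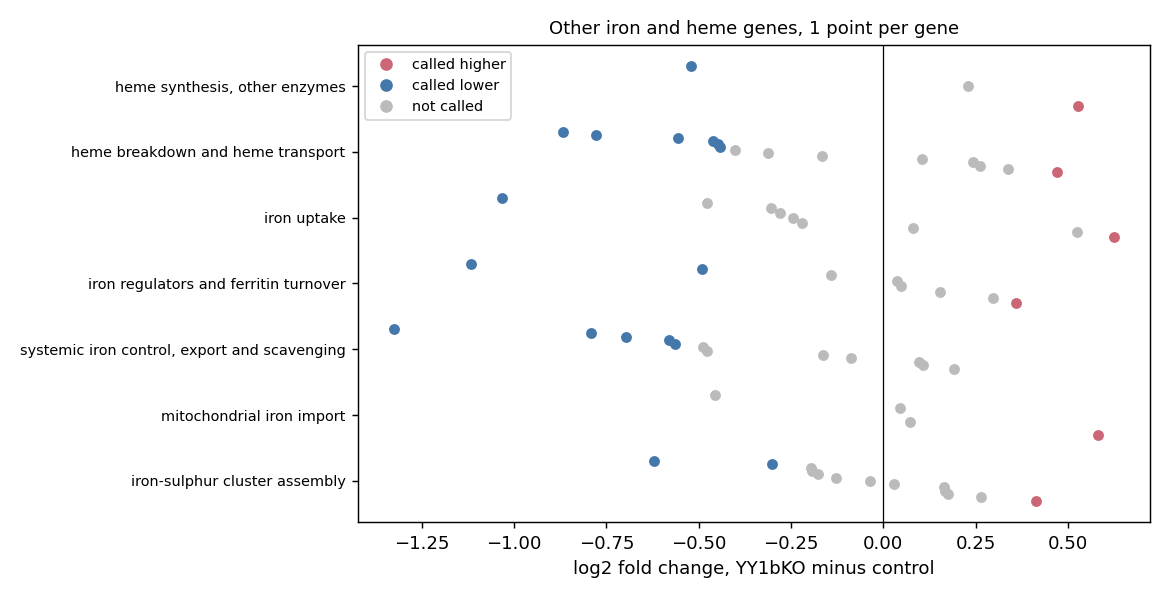
Log2 fold change of YY1bKO over control (horizontal axis) for 63 other genes of iron and heme metabolism in 7 lists (vertical axis), 1 point per gene, spread within a list for legibility. Red points were called higher (6), blue points lower (17), and grey points were not called. Systemic control, export and scavenging had 5 lower and 0 higher genes of 12, and heme breakdown and transport 6 lower and 1 higher of 14. Of all genes 18.3% were called.

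Of 8 regulators and ferritin turnover genes, 1 was higher and 2 lower, 37.5% beside 18.3% of all genes. Aco1, which is iron regulatory protein 1 when it lacks its cluster, gave -0.14 ± 0.10 (SE, limma adjusted p = 0.374), and Ireb2, iron regulatory protein 2, gave 0.30 ± 0.10 (SE, limma adjusted p = 0.0818) with groups that did not overlap. Epas1, the hypoxia factor HIF-2α, fell by 1.12 ± 0.22 (SE, limma adjusted p = 0.0162), and Hif1a fell by 0.49. Epas1 is also an endothelial gene, and the endothelial markers given above were lower too. The part of endothelial cells in the Epas1 difference was not tested. Pcbp2, a chaperone that delivers iron to ferritin, rose by 0.36. The Epas1 and Pcbp2 calls were lost without control array 1 or any YY1bKO array (limma adjusted p up to 0.0654 and 0.0724), and that of Hif1a without any array except control 2 (up to 0.120) and in the mean over its probe sets (-0.26, 0.0611). The replicate block ended the Pcbp2 call too (limma adjusted p = 0.0643). Ireb2 was called without control array 2, with 0.35 and a limma adjusted p of 0.0400, and with array weights, at 0.32 and 0.0363.

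Systemic control, export and scavenging held 5 lower genes of 12 and 0 higher by limma, 41.7% beside 18.3% of all genes. At an unadjusted p under 0.05 also 0 were higher. Cd163, the macrophage receptor for haemoglobin bound to haptoglobin, fell by 0.79 ± 0.19 (SE, limma adjusted p = 0.0330). Of the 15 macrophage markers 0 were called, and their median log2 fold change was 0.14. The marker with an unadjusted limma p under 0.05 was Vsig4, which was dim and gave -0.71. The part of macrophages in the Cd163 difference was not tested. Hp, haptoglobin itself, fell by 0.70, Lrp1, which takes up hemopexin with its heme, by 0.56, and Hfe, a partner of the transferrin receptor, by 0.58. Lcn2, which binds bacterial iron carriers, fell by 1.32 at dim levels of 5.18 and 3.85, and gave -0.79 on the scale of log2(intensity + 16). The calls of Cd163, Hp and Lrp1 were lost without any YY1bKO array (limma adjusted p up to 0.113, 0.0648 and 0.0736). That of Lcn2 was lost without control array 1 or any YY1bKO array (up to 0.0985), and that of Hfe without any array except control 2 and YY1bKO 1 (up to 0.123). The replicate block ended the calls of Cd163, Lrp1 and Lcn2 too (limma adjusted p up to 0.0825).

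Of 13 genes of iron-sulphur cluster assembly 2 were lower and 1 higher, which is 23.1%, near the 18.3% of all genes. Isca2, a late assembly factor, fell by 0.62 ± 0.09 (SE, limma adjusted p = 0.00679), the scaffold gene Iscu fell by 0.30 (limma adjusted p = 0.0477), and Hspa9, the mitochondrial chaperone that acts on the scaffold, rose by 0.41. The Isca2 call was kept under every alternative. That of Hspa9 was lost without control array 1 or any YY1bKO array (limma adjusted p up to 0.0916) and with the replicate block (0.0677). That of Iscu was lost without any array except control 2 (up to 0.142), under quantile normalization (0.0600), under median centring (0.0514) and with the replicate block (0.102). The list median was -0.03.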

How the data were processed

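Total RNA of brown adipose tissue was made into biotin-labelled cRNA and hybridised to Affymetrix arrays, per the labels' protocols. In the table as deposited there is 1 linear intensity per probe set and array, and RMA is the tool named in the submitters' processing notes, its version and options being not given in the sources used here. The method equalises array distributions and pulls in differences at low and very high intensity. Intensities were taken to log2 with no pseudocount. Names came from the platform annotation. Of 22626 probe sets outside 64 array controls, 20380 list 1 gene, 691 several and 1555 none. Each gene was read by its probe set with the highest mean.

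YY1bKO was compared with control by limma 3.58.1 in R 4.3.3 (lmFit, eBayes, 3 arrays a group, Benjamini-Hochberg over 12393 genes, or over 22626 probe sets for single probe sets), tested on simulated data first. Adjusted p values are from limma's moderated test, SE is its moderated standard error, and called means an adjusted p under 0.05. A gene is dim if its mean is at most 6.49, the median of the table. The labels do not state that each replicate is another animal; p-values therefore cover only the spread among these samples, which could be technical.

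The members and lists were chosen with earlier results of these data known. Genes named are all 9 members, from each wider list every called gene or the 5 with the smallest p, Hmox1, Ireb2, Aco1 and Slc25a37 whatever their values, up to 4 markers a cell type, Yy1, Ucp1, and the 5 genes most correlated with the member of smallest p. Alternatives were dropping dim genes, averaging probe sets, median centring, quantile normalization, a trended and robust eBayes, a pseudocount of 16, weights per array, a block for the replicate number, and leaving out each array. Fitted values without a control or YY1bKO array rest on the spread pooled over the other arrays.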

Additional observations from a re-analysis of the deposited data

How the results depend on the processing

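Of 27 named genes that were called, 26 kept their direction wherever one of the 14 alternatives gave a value, and 7 (Fech, Slc40a1, Isca2, Slc25a28, Slc39a8, Slc48a1 and Uros) also kept their call there. Hpx, Lcn2, Slc39a8 and Slc46a1 had no value with dim genes left out. The exception in direction was Slc11a2, with -0.045 in the mean over its probe sets. Of 8 named genes that were not called, 5 were called under at least 1 alternative. Leaving out 1 array gave 547 to 1661 higher and 466 to 1439 lower genes of all, 0 to 2 higher and 2 to 3 lower members, 0 to 4 higher and 3 to 5 lower member probe sets, and 3 to 7 higher and 4 to 20 lower genes in the wider lists. With 1267 and 1003 as the counts of all genes, the replicate block gave 671 and 639. It gave 0 higher members and 0 higher member probe sets, and 3 higher and 8 lower wider genes. The block ended the calls of Fth1, Alas1, Alad, Abcb10, Abcg2, Slc46a1, Hpx, Blvra, Pcbp2, Cd163, Lrp1, Lcn2, Iscu and Hspa9. Their limma adjusted p then lay from 0.05002 to 0.127. Same-numbered arrays deviated from their group means with correlations of -0.25, 0.11 and 0.26, and differently numbered arrays with -0.37 to 0.35. With 3 arrays a group these values cannot decide whether the replicate numbers pair the samples. Median centring gave 0 higher members, and array weights gave 2. Leaving out dim probe sets, and quantile normalization, each gave 2 higher member probe sets instead of 1, and quantile normalization also gave 4 lower ones instead of 6 and 2 lower members instead of 3. The causes were not tested. Signal over background limits the dim genes, for which the table has no detection calls.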
